A study of Mus musculus with 31 samples.

Results

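Large hyperplasias were compared with small hyperplasias of the mammary gland of K5ΔNβcat mice. The comparison rests on 10 of the 31 arrays of the series, 5 arrays titled as large hyperplasias and 5 titled as small ones, with 1 array per sample. K5ΔNβcat mice carry a truncated, stabilised β-catenin under the promoter of keratin 5, which drives the transgene in the basal cells of the mammary epithelium and of other stratified epithelia. Their focal ductal hyperplasias precede carcinomas. The labels give 1 strain, C57BL6, for every sample, and the methods of the study give a mixed 129SV/C57BL6 background. All 10 lesions carry the transgene and were profiled as whole tissue labelled with the Affymetrix protocol, so that epithelium, leukocytes, connective tissue and fat contribute to each signal. Whole tissue of other stages served as points of reference, 11 tumors of K5ΔNβcat mice and 4 samples of control mammary tissue. The labels do not give the size that separates large from small lesions, the age of the mice, or whether lesions came from separate animals. The p-values below therefore measure the spread between samples, which may in part be technical.

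A mammary duct has an inner layer of luminal cells, which express keratins 8 and 18, and an outer layer of basal cells, which express keratins 5 and 14, the transcription factor p63 and, in myoepithelial cells, smooth muscle proteins. β-catenin is the transcriptional arm of the canonical Wnt pathway. In skin, Wnt signals direct cells of this keratin 5 lineage towards hair follicle fates. Basal and luminal markers were present in all 10 lesions. Krt5 signals ranged from 1428 to 2405 in large and from 1092 to 1472 in small hyperplasias, and Krt18 signals ranged from 764 to 1665 in large and from 1639 to 2397 in small hyperplasias. The signal of Ctnnb1, the gene of β-catenin itself, had a median of 3573 in large and 3594 in small hyperplasias (log2 difference 0.07 ± 0.08, adjusted p = 0.64), and this probe set was not shown to report the transgene.

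Values are MAS5 signals, linear intensities that the authors scaled to the same trimmed mean on every array. Differences are on the log2 scale of the signal plus 16, large minus small hyperplasia, with the standard error of limma, and adjusted p-values come from limma with Benjamini-Hochberg adjustment over all probe sets tested. Probe sets with a median signal of 30 or more in at least 1 of both sizes were tested. A probe set is said to have risen or fallen in large hyperplasias where its adjusted p was under 0.05. Of 23456 probe sets tested, 1175 (5.01%) rose and 1084 (4.62%) fell. With 1 probe set per gene, 485 of 11603 genes (4.18%) rose and 638 (5.5%) fell, with a median difference of 0.0032. These counts depended on single arrays. The number of probe sets that rose was 565, 679 and 606 without large hyperplasia 1, 2 or 3, and 513 and 601 without small hyperplasia 1 or 4. The number that fell was 685, 712 and 695 without large hyperplasia 1, 2 or 3, and 720 without small hyperplasia 4. Genes that rose made up 43.2% of all called genes, and 23.5% when each array was scaled to the same median instead. Spearman correlations ranged from 0.936 to 0.975 among large hyperplasias, from 0.925 to 0.969 among small ones and from 0.883 to 0.952 between both sizes.

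A pattern of the major histocompatibility complex (MHC) set all large hyperplasias apart from all small ones. MHC class I molecules present peptides on almost every cell, and class II molecules present them on antigen-presenting cells. H2-Ea encodes the α chain of the class II molecule E, which mice of the H-2b haplotype, C57BL/6 among them, do not express. H2-Ea signals were 2299, 2045, 2168, 2541 and 2306 in large hyperplasias 1 to 5, against 1.01, 0.825, 6.21, 1.59 and 4.68 in small hyperplasias 1 to 5. The gene was therefore at a high and even level in all 5 large lesions and not above background in any small one, at least 75.5-fold higher (adjusted p = 2.1e-05). This bound sets the mean log2 signal of the bright group against the background cut-off of 30. Among other tissue arrays it reached 1382 in tumor 4, against at most 6.89 in the other 10 tumors and at most 44.9 in control tissue.

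H2-Ea did not stand alone. In all, 6 probe sets were at 150 or more in every large hyperplasia and under 30 in every small one, and none had the opposite pattern. They comprised 2 of H2-Ea, 3 of the class I gene H2-D1, and 1 listed for several class I genes. The brightest of H2-D1 read 3505, 2217, 2509, 2605 and 2554 in large hyperplasias, against 5.57, 4.90, 9.32, 0.488 and 0.791 in small ones. All 6 were also above 30 in tumor 4 and in no other tumor. A different H2-D1 probe set, the brightest for that gene, read 3950 to 7072 in large and 3211 to 5801 in small hyperplasias (log2 difference 0.34, adjusted p = 0.14). Probe sets of this gene thus disagreed, and several are of a type that can share sequence with other class I genes. The labels give no MHC haplotype. Whatever sets this pattern followed lesion size in all 10 arrays, so that an inherited difference between the mice and the size of the lesion cannot be told apart in any result below.

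**Figure D1:**
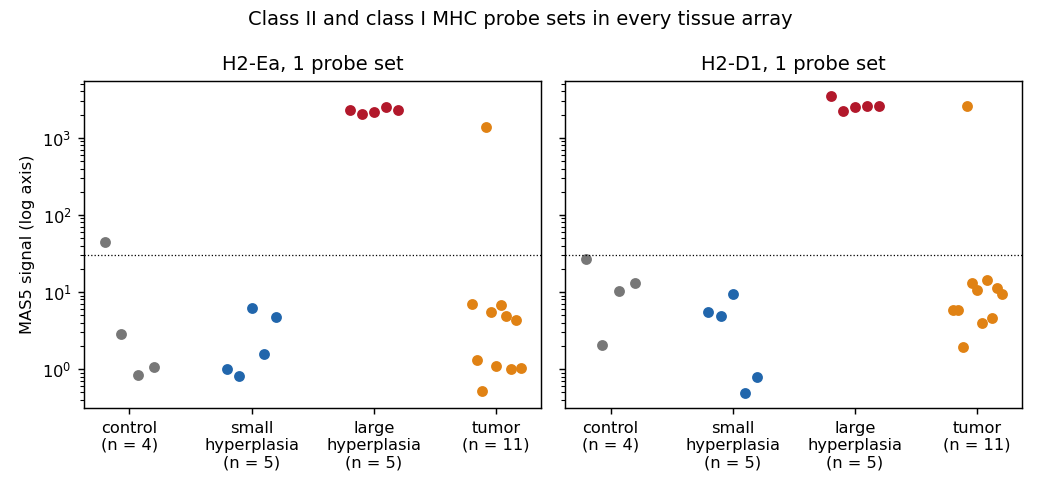
MAS5 signal (log axis) of 1 probe set of H2-Ea and 1 of H2-D1 in every tissue array, by group; each point is 1 array and the dotted line is the background cut-off of 30. In the H2-Ea panel the 5 large hyperplasias are at 2045 to 2541 and tumor 4 at 1382, and the small hyperplasias are under 30 in both panels.

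Lymphocyte genes held most of the immune genes that rose in the model of all tissue arrays, but not on the 10 hyperplasia arrays alone. Of 211 immune genes tested, from 10 lists, 46 (21.8%) rose and 2 (0.948%) fell, with a median difference of 0.48, against 4.18% and 5.5% of all genes and a median of 0.0032. Genes of B and plasma cells and of T and NK cells held 25 of these 46 calls. The number that rose was 20 and 22 without large hyperplasia 1 or 2, 29 without large hyperplasia 3, and 16 and 29 without small hyperplasia 1 or 3. It was 6 without large hyperplasias 1 and 2 together, and 92 when only the 10 hyperplasia arrays were fitted, where 6.62% of all genes rose and 6.34% fell. Those 92 included 12 T and NK cell genes and 15 B and plasma cell genes. They also included 17 macrophage and monocyte, 16 interferon response and 14 pan-leukocyte genes. In bulk tissue, more cells of a type and more RNA per cell cannot be told apart.

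Of 21 T and NK cell genes tested, 11 rose, none fell and the median was 0.80. Il7r, the receptor chain for the T cell survival cytokine interleukin 7, had signals of 566, 431, 532, 427 and 338 in large hyperplasias, against 130, 113, 101, 205 and 130 in small ones. The highest small lesion was below the lowest large one, and the difference was 1.66 ± 0.36 (adjusted p = 0.0063). Cxcr6, a chemokine receptor of activated T and NK cells, had signals of 122, 115, 138, 103 and 85.7 in large hyperplasias, against 31.4, 49.0, 29.2, 45.8 and 34.4 in small ones (1.26 ± 0.26, adjusted p = 0.0046). Cd8b1, a chain of the co-receptor of cytotoxic T cells, read 42.3 to 55.3 in large hyperplasias and was not above 30 in any small one, at least 1.62-fold higher (adjusted p = 0.0031). Cd3d and Cd3e, invariant chains of the T cell receptor complex, rose by 1.04 ± 0.27 and 1.08 ± 0.27 without overlap between the groups (adjusted p = 0.018 and 0.013). The cytotoxic granule gene Gzma differed by 0.16 (adjusted p = 0.88). The cytotoxic genes Gzmb and Prf1, the co-receptors Cd4 and Cd8a and the regulatory T cell factor Foxp3 were too dim in both sizes to be tested. The calls of Il7r, Cxcr6, Cd8b1 and Cd3d held without any single hyperplasia, and that of Cd3e was lost without small hyperplasia 1 (adjusted p = 0.0515). The list's count of 11 was 7 without large hyperplasia 1 or 2 or without small hyperplasia 1.

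Of 21 B and plasma cell genes tested, 14 rose, none fell and the median was 0.79. Here the lesions varied more within each size, and only 3 of the 21 genes had no overlap between large and small lesions (5.12% of all genes were higher without overlap, and 5.55% lower). Jchain, which joins IgA and IgM into polymers, had signals of 5653, 4023, 4250, 2844 and 3053 in large hyperplasias, against 209, 2328, 641, 969 and 575 in small ones (2.41 ± 0.64, adjusted p = 0.019). Small hyperplasia 2 came closest to the large lesions. The signals of Ms4a1, which encodes the B cell antigen CD20, were 206, 225, 99.7, 121 and 36.4 in large hyperplasias, against 17.0, 67.1, 13.3, 62.6 and 37.4 in small ones (1.41 ± 0.37, adjusted p = 0.019). Large hyperplasia 5 was thus no higher than small hyperplasia 5. Cd79a, a signalling chain of the B cell receptor, differed by 1.33 ± 0.34 (adjusted p = 0.016), and Pou2af1, a B cell coactivator of octamer-binding factors, by 1.32 ± 0.34 (adjusted p = 0.017). Mzb1, a chaperone of antibody-secreting cells, differed by 1.44 ± 0.40 (adjusted p = 0.024).

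Immunoglobulin genes were among the largest rises of the whole comparison. A probe set of Igk read 920, 1593, 1205, 767 and 902 in large hyperplasias, against 53.3, 361, 54.0, 24.8 and 85.1 in small ones (3.48 ± 0.69, adjusted p = 0.0032). Igha, the heavy chain of IgA, read 10416, 4985, 5424, 4326 and 5029 in large hyperplasias, against 648, 3312, 489, 1768 and 1934 in small ones (2.13 ± 0.63, adjusted p = 0.033). Ighg3, the heavy chain of IgG3, was split among the large lesions, at 1890 and 2248 in large hyperplasias 1 and 2 and at 72.7, 127 and 89.4 in the other 3, against 9.24 to 69.7 in small hyperplasias (2.83 ± 0.67, adjusted p = 0.0096). Immunoglobulin variable segments form families of similar genes, so a probe set may read more than the gene it is named for. The B and plasma cell list had 4, 4 and 3 rises without large hyperplasia 1, large hyperplasia 2 or small hyperplasia 1, and none without large hyperplasias 1 and 2 together. Calls were lost without either of large hyperplasias 1 and 2 or without small hyperplasia 1 for Pou2af1, without those or small hyperplasia 3 for Mzb1 and Ms4a1, without large hyperplasia 2 or small hyperplasia 1 for Cd79a, without large or small hyperplasia 1 for Jchain, and without large hyperplasia 1, 2 or 3 or small hyperplasia 1 or 4 for Igha (adjusted p up to 0.098). Igk and Ighg3 kept theirs without any single hyperplasia.

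Some genes of lymph node tissue rose as well. Of the 11 genes on a list of lymph node stroma and follicles, 4 were bright enough to be tested and 3 rose. These were Cxcl13, Ltb and Fcer2a, while Glycam1, which is also a milk protein, differed by 2.24 (adjusted p = 0.23). Fcer2a and Cr2 are also on the list of B and plasma cell genes, so the lists are not independent. Cxcl13, the chemokine that attracts B cells into follicles, read 412, 487, 464, 331 and 168 in large hyperplasias, against 110, 163, 65.4, 279 and 138 in small ones (1.26 ± 0.39, adjusted p = 0.042). The summed signal of the list's 8 genes on the array was 462 to 989 in large and 140 to 539 in small hyperplasias. Madcam1, Chst4 and Cr2, which mark the vessels and follicles of lymph nodes, were below 30 at the median in both sizes. The part of lymph node tissue in the rise of lymphocyte genes was not tested. The count of 3 rises was 0 without large hyperplasia 1 or 2, and 1 without large hyperplasia 3 or 4 or small hyperplasia 1, 3 or 5.

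Several myeloid genes rose. Of 38 macrophage and monocyte genes tested, 7 rose, none fell and the median was 0.46. Gpnmb, a glycoprotein of lipid-laden and phagocytic macrophages, had the largest difference of the list. Its signals were 1353, 1812, 2947, 1284 and 987 in large hyperplasias, against 416, 275, 285, 614 and 204 in small ones (2.17 ± 0.53, adjusted p = 0.012). Atp6v0d2, a proton pump subunit of osteoclasts and macrophages, was on none of the lists. It had one of the 10 largest rises among called genes without overlap and with a group median of at least 100. Its signals were 370, 264, 554, 184 and 156 in large hyperplasias, against 39.7, 53.4, 46.8, 105 and 72.2 in small ones (1.93 ± 0.39, adjusted p = 0.0037). Trem2, a lipid-sensing receptor of macrophages, read 142, 124, 233, 71.5 and 42.3 in large hyperplasias, against 38.8, 38.8, 41.3, 25.5 and 31.9 in small ones (1.27 ± 0.32, adjusted p = 0.015). Large hyperplasia 3 was highest for all 3 of these genes, and no large lesion overlapped a small one. Lack of overlap was a condition for the 10 largest rises, which included Gpnmb as well as Atp6v0d2. Cybb, the catalytic chain of the phagocyte oxidase, rose by 1.09 ± 0.23 (adjusted p = 0.0057), and Itgax, which encodes CD11c and was listed with dendritic cells, by 1.13 ± 0.21 (adjusted p = 0.0024). Markers of resident macrophages did not pass the test, with differences of 0.41 for Adgre1, 0.07 for Csf1r, -0.10 for Mrc1 and -0.56 for Cd163 (adjusted p = 0.13, 0.83, 0.78 and 0.39). The call of Trem2 was lost without large hyperplasia 3 (adjusted p = 0.056), while those of Gpnmb, Atp6v0d2, Cybb and Itgax held without any single hyperplasia. Fitted on the 10 hyperplasia arrays alone, 17 of the 38 genes rose. The list's count of 7 was 4, 2, 3, 4 and 3 without large hyperplasia 1, large hyperplasia 3, and small hyperplasias 1, 2 and 3.

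Class II genes other than H2-Ea depended on the probe set. The brightest probe set of H2-Aa, the α chain of the class II molecule A, read 4913, 3547, 4449, 4603 and 4174 in large hyperplasias, against 2860, 2722, 3167, 3820 and 5695 in small ones (log2 difference 0.29, adjusted p = 0.27). Small hyperplasia 5 had the highest value of all 10. Another H2-Aa probe set read 2806 to 3398 in large and 1131 to 1985 in small hyperplasias (1.03, adjusted p = 0.0015). Of 18 genes of MHC class II and dendritic cells tested, 4 rose, Itgax, H2-DMb2, Ccr7 and Cd86, with a median of 0.37. H2-DMb2 differed by 0.95 ± 0.27, Ccr7, which guides dendritic cells and T cells to lymph nodes, by 0.75 ± 0.21, and Cd86, a costimulatory ligand, by 0.57 ± 0.17 (adjusted p = 0.027, 0.028 and 0.04), all with overlap between the groups. These 3 calls were lost in 5 to 7 of the 10 omissions of a single hyperplasia, each time including large hyperplasia 3 and small hyperplasia 1 (adjusted p up to 0.099). The list's count of 4 was 2 without large hyperplasia 1 or 4 or small hyperplasia 2, 3 or 4, 1 without large hyperplasia 3 or small hyperplasia 1, and 8 without small hyperplasia 5.

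Neutrophil genes followed 2 of the large lesions. Camp, the antimicrobial cathelicidin of neutrophil granules, read 196 and 235 in large hyperplasias 1 and 2 and 32.8, 33.9 and 46.2 in the other 3, against 1.19 to 27.7 in small hyperplasias, at least 2.50-fold higher over the group (adjusted p = 0.0057). Ngp, another granule protein, read 525 and 650 in large hyperplasias 1 and 2 and 75.1 to 106 in the other 3, against 13.3 to 91.6 in small hyperplasias (2.18 ± 0.66, adjusted p = 0.037). S100a8 and S100a9, the calprotectin subunits, were the brightest of the list and did not pass the test (1.00 ± 0.37 and 1.03 ± 0.42, adjusted p = 0.089 and 0.12). These 2 rises were the only ones among 17 neutrophil genes, and that of Ngp was lost without large hyperplasia 1 or 2 or without small hyperplasia 1, 2, 4 or 5 (adjusted p up to 0.11). The count of 2 was 5 without large hyperplasia 4. None of 7 mast cell and eosinophil genes changed. The mast cell protease Cpa3 read 311 to 471 in large and 329 to 548 in small hyperplasias, and tumors were lower than both at 12.8 to 151.

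Interferon response genes shifted together by a small amount. All 34 tested had positive differences, with a median of 0.46, and 2 passed the test, Tap1 (0.85 ± 0.26) and Psmb8 (0.71 ± 0.22, adjusted p = 0.042 for both), which load and cut peptides for class I molecules. Tap1 read 470, 332, 360, 424 and 336 in large hyperplasias, against 174, 193, 178, 260 and 229 in small ones. Both genes lie in the MHC region, and both calls were lost in 9 of the 10 omissions, all but that of small hyperplasia 5 for Tap1 and of small hyperplasia 2 for Psmb8 (adjusted p up to 0.12). The GTPase Iigp1, the brightest of the list, read 1058 to 2014 in large and 526 to 1002 in small hyperplasias, with no overlap, yet did not pass the test with tumors in the fit (0.93 ± 0.48, adjusted p = 0.23), where it ranged from 284 to 3005. On the 10 hyperplasia arrays alone, 16 of the 34 genes rose, Iigp1 among them (adjusted p = 0.0093). The 19 pan-leukocyte genes were alike, with 19 positive differences, a median of 0.53, 2 rises (Cd52 and Ikzf1) in the model of all tissue arrays and 14 on the 10 arrays. Ptprc, which encodes the leukocyte antigen CD45, read 1257, 1253, 1259, 1115 and 896 in large hyperplasias, against 771, 632, 745, 875 and 804 in small ones (0.58 ± 0.22, adjusted p = 0.094, and 0.0084 on the 10 arrays). The calls of Cd52 and Ikzf1 were lost without large hyperplasia 1, 2 or 3 or small hyperplasia 1, and that of Ikzf1 also without large hyperplasia 4 or small hyperplasia 2 or 3 (adjusted p up to 0.11). The pan-leukocyte count of 2 was 5 without large hyperplasia 5 and 4 without small hyperplasia 5.

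Among 24 chemokine ligands, 3 rose and 1 fell. Ccl5, made by activated T cells, read 492, 363, 506, 499 and 270 in large hyperplasias, against 91.1, 101, 83.1, 181 and 241 in small ones (1.58 ± 0.41, adjusted p = 0.017). The groups did not overlap, and large hyperplasia 5 and small hyperplasia 5 were the nearest to each other. Cxcl16, the ligand of the receptor Cxcr6 described above, read 259 to 345 in large and 112 to 241 in small hyperplasias (0.68 ± 0.21, adjusted p = 0.037). Cxcl15 fell, at 38.0 to 61.0 in large and 47.1 to 250 in small hyperplasias (-1.23 ± 0.25, adjusted p = 0.0039). The call of Ccl5 was lost without small hyperplasia 1 (adjusted p = 0.0505), and that of Cxcl16 without large hyperplasia 1, 2 or 3 or small hyperplasia 1, 2, 3 or 4 (adjusted p up to 0.093). The count of 3 rises was 1 without large hyperplasia 1, 2 or 3 or small hyperplasia 3, and 0 without small hyperplasia 1. Of 12 complement genes, the receptor C3ar1 rose (1.10 ± 0.29, adjusted p = 0.017) and the complement inhibitor Cd59a fell (-0.70 ± 0.18, adjusted p = 0.016), both without overlap and in every omission of a single hyperplasia. Other probe sets of C3ar1 differed by 0.88 and 0.71 and did not pass the test (adjusted p = 0.096 and 0.11).

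**Figure D2:**
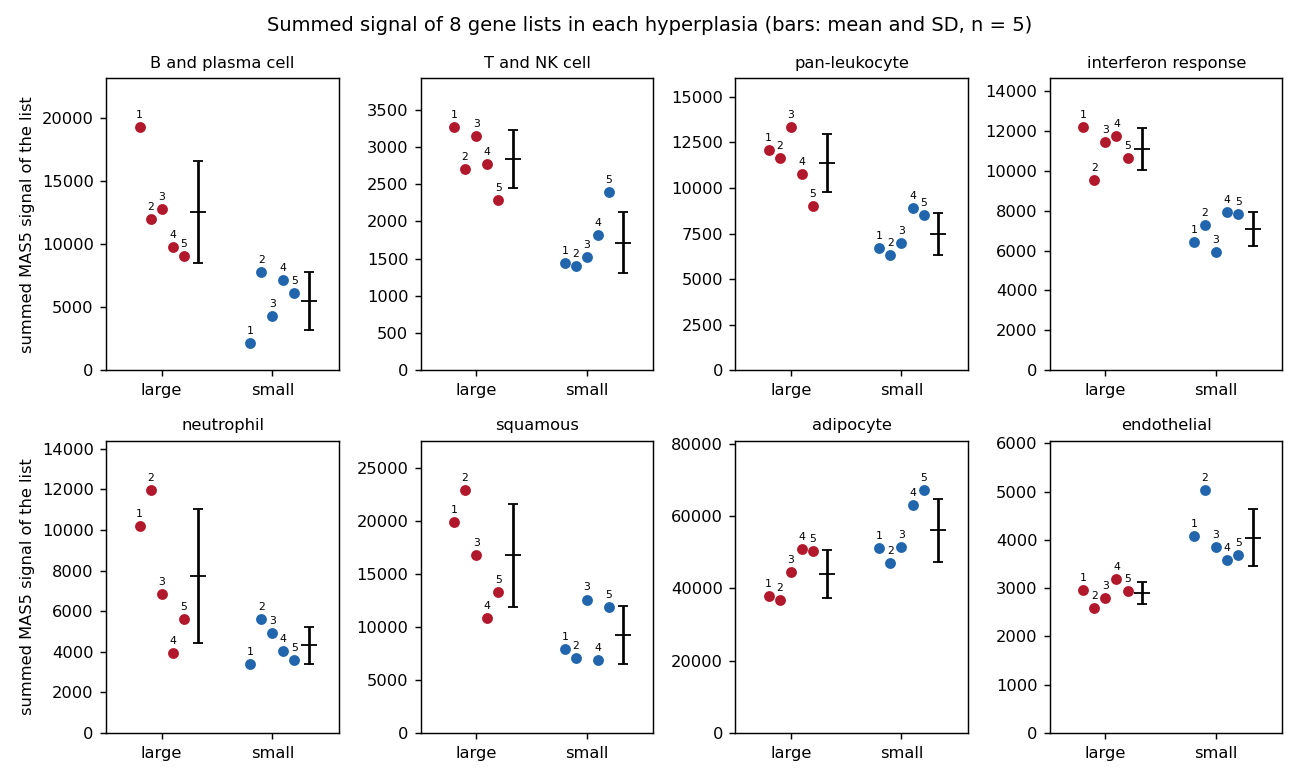
Summed MAS5 signal of all genes on the array of 8 lists, in large (red, left) and small (blue, right) hyperplasias; numbers are replicates and bars are mean and SD (n = 5 each). B and plasma cell sums are 9086 to 19290 in large and 2168 to 7789 in small hyperplasias, and adipocyte sums overlap, at 36840 to 50840 in large and 46946 to 67343 in small ones.

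Few matrix genes passed the test. Of 165 tested in 7 lists, 4 (2.42%) rose and 2 (1.21%) fell, with a median of -0.15, against 4.18% and 5.5% of all genes. This order turned with the arrays in the fit. With only the 10 hyperplasia arrays, 15 matrix genes (9.09%) were higher and 23 (13.9%) lower, against 6.62% and 6.34% of all genes. The difference between matrix genes and other genes was not tested in either fit. None of 20 genes of fibrillar collagens and their assembly and none of 16 other collagen genes passed the test. At an unadjusted p under 0.05, by the unequal-variance test of the study's methods, 21 matrix genes were higher and 38 lower. Col3a1, the brightest fibrillar collagen, read 6130, 4852, 6353, 6554 and 6488 in large hyperplasias, against 6996, 4995, 5841, 7736 and 10278 in small ones (-0.20 ± 0.18, adjusted p = 0.52). Small hyperplasias 1, 4 and 5 were above every large lesion, large hyperplasia 2 was below every small one, and the others overlapped. A second, dimmer probe set of Col3a1 differed by -0.77 ± 0.38 (adjusted p = 0.21). Col1a2 differed by -0.04 ± 0.21 (adjusted p = 0.93), and Fn1, which encodes fibronectin, by -0.36 ± 0.19 (adjusted p = 0.24). Postn, which encodes the matricellular protein periostin, was lower in large hyperplasias by a margin that did not pass the test, at 2915, 3019, 3227, 3748 and 3904, against 3837, 3993, 4249, 4305 and 4792 in small ones (-0.34 ± 0.13, adjusted p = 0.087).

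The matrix genes that rose were Cd44, Tnn, Sdc4 and Adamts9. Cd44, the hyaluronan receptor and a known Wnt target, read 2018, 2444, 2247, 1703 and 1861 in large hyperplasias, against 793, 1206, 1368, 661 and 1201 in small ones (1.00 ± 0.19, adjusted p = 0.0026). The lowest large lesion was above the highest small one, and its call held without any single hyperplasia. Control tissue was lower still at 216 to 421, and tumors, at 1197 to 2590, were like large hyperplasias in range. Tnn, which encodes tenascin-W, read 158, 184, 141, 60.7 and 85.5 in large hyperplasias, against 13.6, 65.0, 38.5, 31.3 and 1.71 in small ones (1.72 ± 0.52, adjusted p = 0.036). Sdc4, a cell-surface heparan sulphate proteoglycan, differed by 0.47 ± 0.13 and the metalloproteinase Adamts9 by 0.75 ± 0.24 (adjusted p = 0.025 and 0.045). A second probe set of Sdc4, more variable and dimmer, had a difference of -0.37 (adjusted p = 0.13), the opposite direction. Other probe sets of Adamts9 differed by 0.24 and 0.37 and did not pass the test (adjusted p = 0.36 and 0.17). The elastase Mmp12 of macrophages was the brightest matrix protease and reached 2661, 2547, 3813, 2137 and 1618 in large hyperplasias, against 740, 445, 631, 1587 and 700 in small ones, with no overlap (1.70 ± 0.56, adjusted p = 0.053, and 0.0038 on the 10 arrays). Like Gpnmb and Trem2, it was highest in large hyperplasia 3.

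The matrix genes that fell were Lama4, a laminin chain of vessel and fat basement membranes, and Sparcl1, a matricellular protein of vessels. Lama4 read 165, 189, 233, 355 and 342 in large hyperplasias, against 480, 488, 472, 387 and 437 in small ones (-0.84 ± 0.26, adjusted p = 0.045). Sparcl1 read 447 to 624 in large and 764 to 1311 in small hyperplasias (-0.79 ± 0.25, adjusted p = 0.044). The counts of 4 and 2 were small and moved with single lesions, to 1 and 0 without large hyperplasia 1 or without small hyperplasia 1, to 2 and 0 without large hyperplasia 2 or 3 or small hyperplasia 4, and to 5 and 1 without large hyperplasia 4 or 5. Without small hyperplasias 2, 3 and 5 in turn they were 6 and 3, 4 and 1, and 3 and 4. Lama4, Sparcl1 and Adamts9 each lost their call in 8 of the 10 omissions, keeping it only without large hyperplasia 4 or 5 (Lama4), without small hyperplasia 3 or 5 (Sparcl1), or without small hyperplasia 2 or 3 (Adamts9), and their adjusted p reached 0.13. Tnn lost its call without large hyperplasia 1, 2 or 3 or small hyperplasia 1, 4 or 5, and Sdc4 without large hyperplasia 1 or small hyperplasia 1 or 4 (adjusted p up to 0.092 and 0.089).

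**Figure D3:**
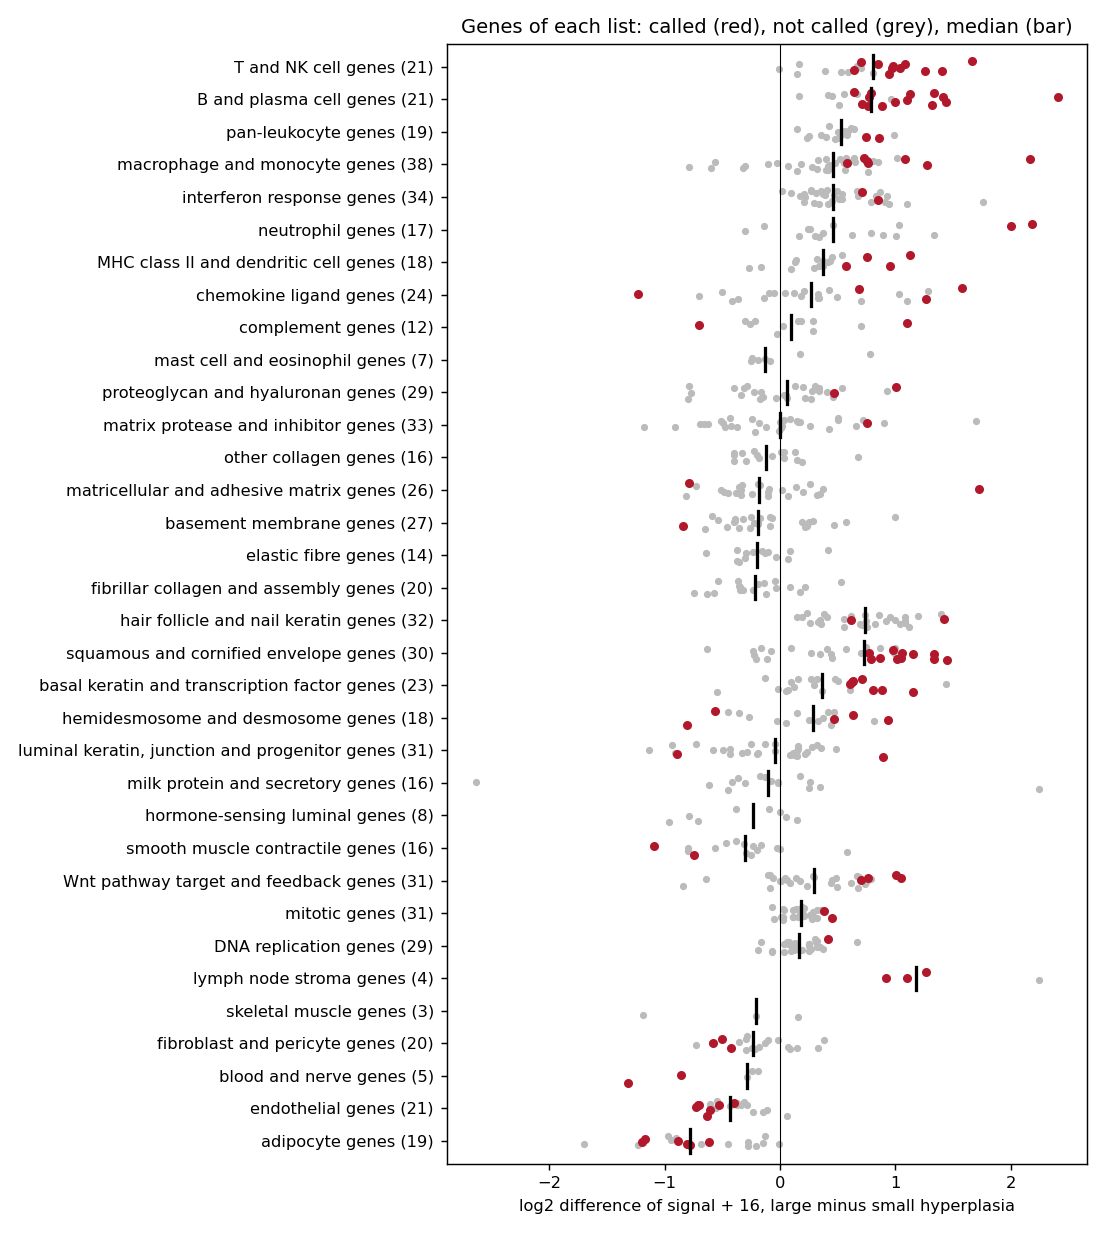
Log2 difference of signal + 16 (large minus small hyperplasia) of each tested gene in 34 lists, grouped as immune, matrix, epithelial, other and other tissue, from top to bottom; red points passed the test, grey points did not, the black bar is the list's median and the number of genes tested is in parentheses. The medians of the B and T cell lists are 0.79 and 0.80, and that of the adipocyte list is -0.78.

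Basal and squamous genes held most of the epithelial genes that rose. Of 173 epithelial genes tested in 8 lists, 24 (13.9%) rose and 5 (2.89%) fell, with a median of 0.23. Of all genes, 4.18% rose and 5.5% fell. Of 23 genes of basal keratins and basal transcription factors, 7 rose and none fell (median 0.36). Krt17, a keratin of basal, wounded and hair follicle epithelium, read 1904, 2049, 1827, 1234 and 1376 in large hyperplasias, against 653, 803, 797, 591 and 846 in small ones (1.15 ± 0.15, adjusted p = 9.3e-05). Krt17 was 41.5 to 54.3 in control tissue and 1911 to 3508 in tumors, so small lesions, large lesions and tumors were each above the group before them at the median. Trp63, which encodes p63, read 677, 744, 568, 459 and 525 in large hyperplasias, against 388, 390, 349, 269 and 380 in small ones (0.71 ± 0.20, adjusted p = 0.029). Another Trp63 probe set also rose (1.17 ± 0.24, adjusted p = 0.004). Dimmer ones differed by 0.42 and 0.35 and did not pass the test (adjusted p = 0.17 and 0.21). Lgals7, a galectin of stratified epithelia, rose by 0.89 ± 0.20, Sox9 by 0.81 ± 0.24 and Krt5 by 0.63 ± 0.16 (adjusted p = 0.0085, 0.032 and 0.017). A dimmer probe set of Sox9 differed by 0.45 ± 0.21 and did not pass the test (adjusted p = 0.17). Krt14, which pairs with keratin 5, did not pass the test at 1827 to 3788 in large and 1633 to 2837 in small hyperplasias (0.36 ± 0.15, adjusted p = 0.14).

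Of 30 squamous and cornified envelope genes tested, 11 rose, none fell and the median was 0.73. The cornified envelope is the cross-linked protein shell of the outermost cells of skin. The kallikrein proteases Klk7 and Klk10 and the small protein Crct1 led the list. Klk7, which digests the junctions between shedding skin cells, read 2237, 2402, 1755, 1023 and 1203 in large hyperplasias, against 503, 727, 722, 447 and 892 in small ones (1.33 ± 0.25, adjusted p = 0.0022). Crct1 read 1875, 2303, 1587, 1074 and 1236 in large hyperplasias, against 556, 504, 681, 579 and 749 in small ones (1.33 ± 0.20, adjusted p = 0.00044). Klk10 read 657, 961, 468, 227 and 272 in large hyperplasias, against 116, 153, 162, 160 and 196 in small ones (1.45 ± 0.31, adjusted p = 0.0051). In all 3 genes large hyperplasias 1 to 3 were higher than large hyperplasias 4 and 5, and none of the large lesions overlapped a small one. Gsdma, a pore-forming gasdermin of skin, rose by 1.15 ± 0.28 (adjusted p = 0.011). Among the 19 members that did not pass the test were the suprabasal keratins Krt1 and Krt10 (differences of -0.11 and 0.44) and the envelope or granule proteins Lor, Flg and Ivl (-0.24, -0.16 and 0.45, adjusted p = 0.89, 0.62, 0.81, 0.89 and 0.39 in this order).

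The promoters of 2 of the squamous genes that rose are shown because they hold the binding motif of AP-1, a factor known for its sites in genes of the cornified envelope. Sprr1a, a small proline-rich precursor of the envelope, read 4095, 3607, 3121, 2092 and 2223 in large hyperplasias, against 1279, 968, 1781, 1345 and 2392 in small ones (0.98 ± 0.24, adjusted p = 0.012). Krtdap, a secreted protein of differentiating keratinocytes, read 1257, 1743, 1304, 755 and 1194 in large hyperplasias, against 560, 535, 627, 387 and 970 in small ones (1.02 ± 0.25, adjusted p = 0.012). In both genes only small hyperplasia 5 reached the range of the large lesions. The 200 bases before the annotated start of each gene are given below from RefSeq (GRCm38.p6), 5′ to 3′ on the strand of the gene, with the motif in capitals. The Sprr1a stretch lies at chr3:92485882-92486081 on the minus strand and the Krtdap stretch at chr7:30787705-30787904 on the plus strand.
Sprr1a: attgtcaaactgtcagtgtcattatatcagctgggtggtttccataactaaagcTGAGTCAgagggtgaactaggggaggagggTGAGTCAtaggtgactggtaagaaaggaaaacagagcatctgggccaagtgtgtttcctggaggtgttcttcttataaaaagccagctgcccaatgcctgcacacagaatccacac
Krtdap: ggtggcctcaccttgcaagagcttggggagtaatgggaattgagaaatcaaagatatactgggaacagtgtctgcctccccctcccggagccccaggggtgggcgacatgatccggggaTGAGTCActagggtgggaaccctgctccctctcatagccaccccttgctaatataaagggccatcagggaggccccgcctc

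The motif was searched as TGAGTCA or TGACTCA, each the reverse complement of the other, in the 250 bases before the start. Sprr1a held it 2 times and Krtdap held it 1 time. Of the 42 genes on the squamous list, 36 had a promoter in the table and 7 of these (19.4%) held the motif, against 4.43% of 27025 genes. The other 5 were Ivl, Lor, Sprr2d, Sprr2h and Scel, none of which passed the test. Among the 9 genes of the list that rose and had a promoter, the share was 22.2%. These letters describe the sequence only, and binding of AP-1 was not measured here.

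Genes of the hair follicle and of hair keratins all had positive differences, 32 of 32 tested, with a median of 0.73, but only 2 passed the test in the model of all tissue arrays. Krt75, a keratin of the follicle's companion layer, read 825, 811, 379, 576 and 363 in large hyperplasias, against 157, 256, 201, 184 and 203 in small ones (1.42 ± 0.45, adjusted p = 0.046). Foxn1, the transcription factor whose loss causes hairlessness in nude mice, read 34.7 to 57.1 in large hyperplasias and was under 30 in small ones on its brighter probe set, at least 1.43-fold higher (adjusted p = 0.013). Its second probe set overlapped, at up to 36.1 in small hyperplasia 5 and down to 21.9 in large hyperplasia 1 (0.31 ± 0.18, adjusted p = 0.28). The 2 brightest genes, Krt79 and Krt25, did not overlap between sizes either. Krt79 read 3697, 3405, 3025, 1873 and 2242 in large hyperplasias, against 1545, 1794, 1298, 1313 and 1711 in small ones (0.85 ± 0.48, adjusted p = 0.26). Krt25, a keratin of the inner root sheath, read 2755, 3473, 1897, 1835 and 1284 in large hyperplasias, against 912, 1016, 988, 1085 and 1122 in small ones (1.04 ± 0.71, adjusted p = 0.37). Their signals ranged widely among tumors, from 305 to 2837 and from 39.5 to 1922, and tumors shared the estimate of the spread. On the 10 hyperplasia arrays alone, 12 of the 32 genes rose, with adjusted p = 0.0097 for Krt79 and 0.0084 for Krt25. Among all genes with no overlap between sizes and a signal of at least 100, the hair keratin-associated genes Krtap19-2 (2.30 ± 0.54) and Krtap19-9b (1.72 ± 0.54) also had some of the 10 largest rises (adjusted p = 0.009 and 0.042). The call of Krtap19-9b was lost without any of large hyperplasias 1 to 4 or small hyperplasias 1 to 4 (adjusted p up to 0.12), and that of Krtap19-2 held. Hair keratin signal in a mammary sample can also come from overlying skin. The skin genes Krt1, Lor and Flg had the differences given above, and the part of skin in these samples was not tested.

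**Figure D4:**
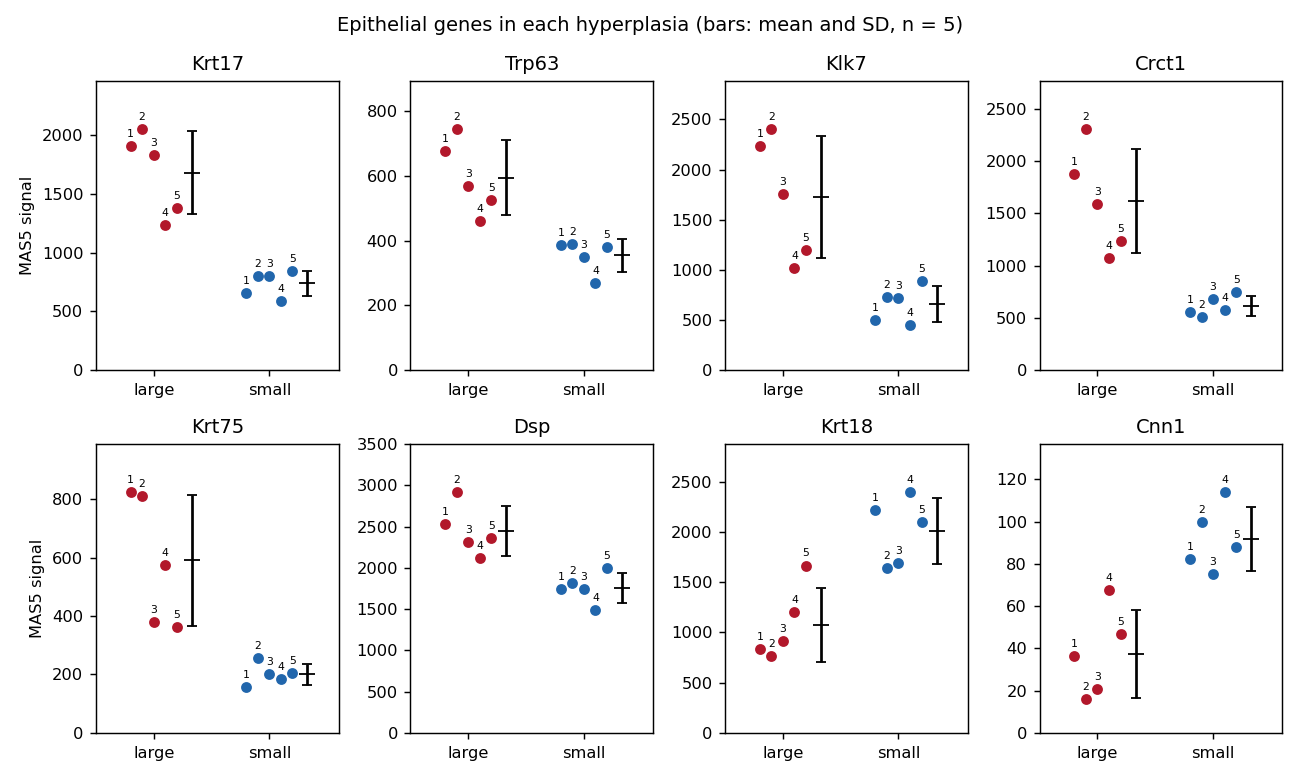
MAS5 signal of 8 epithelial genes in large (red, left) and small (blue, right) hyperplasias; numbers are replicates and bars are mean and SD (n = 5 each). Krt17, Trp63, Klk7, Crct1, Krt75 and Dsp are higher in every large lesion than in any small one, Cnn1 is lower in every large lesion, and Krt18 overlaps in 1 large lesion.

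Genes of cell junctions went both ways. Of 18 genes of hemidesmosomes and desmosomes, 3 rose, Dsc3, Pkp3 and Dsp, and 2 fell, Pkp2 and Cd151. Dsp, which encodes desmoplakin, read 2530, 2920, 2314, 2122 and 2358 in large hyperplasias, against 1746, 1818, 1742, 1489 and 2000 in small ones (0.47 ± 0.12, adjusted p = 0.016). Dsc3, the desmocollin of stratified epithelium, rose by 0.93 ± 0.28 (adjusted p = 0.034). A second probe set of Dsc3 differed by 0.36 ± 0.29 and did not pass the test (adjusted p = 0.46). Pkp2, a plakophilin of simple epithelium and heart, read 83.8 to 142 in large and 167 to 268 in small hyperplasias (-0.80 ± 0.21, adjusted p = 0.015), and the tetraspanin Cd151 read 813 to 996 in large and 1162 to 1519 in small hyperplasias (-0.56 ± 0.11, adjusted p = 0.0039). Cldn1, a tight junction claudin, was the only luminal and junction gene of 31 to rise, at 677, 612, 551, 448 and 425 in large hyperplasias, against 304, 310, 277, 217 and 300 in small ones (0.90 ± 0.18, adjusted p = 0.0039).

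Few luminal and smooth muscle genes passed the test. Of 31 luminal genes, 14 had positive differences, with a median of -0.04. Prom1, which encodes prominin 1 of luminal cells, was the only luminal gene to fall (-0.89 ± 0.28, adjusted p = 0.046). Krt18 read 838, 764, 913, 1205 and 1665 in large hyperplasias, against 2219, 1639, 1694, 2397 and 2095 in small ones (-0.93 ± 0.31, adjusted p = 0.054, and 0.0093 on the 10 arrays). Only large hyperplasia 5 reached the small lesions. Krt8 differed by -0.91 ± 0.30 (adjusted p = 0.058), while the pan-epithelial Epcam differed by -0.04 ± 0.23 (adjusted p = 0.94) at a median of 1087 in large and 1202 in small hyperplasias. None of 8 hormone-sensing genes and none of 16 milk protein and secretory genes passed the test. On the 10 arrays alone 3 hormone-sensing genes fell, and 1 milk protein gene rose and 1 fell. Of 16 smooth muscle genes, 2 fell. Cnn1, the calponin of contractile cells, read 36.3, 15.9, 20.6, 67.7 and 46.7 in large hyperplasias, against 82.3, 99.7, 75.1, 114 and 88.0 in small ones (-1.09 ± 0.27, adjusted p = 0.012), and Myh11, smooth muscle myosin, fell by 0.75 ± 0.22 (adjusted p = 0.031). Acta2, smooth muscle actin, did not pass the test (-0.47 ± 0.18, adjusted p = 0.1). Smooth muscle genes are also expressed by vessels, and vessel genes were lower as well (below). The part of vessels in the falls of smooth muscle genes was not tested.

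The epithelial counts of 24 and 5 were 13 and 3 without large hyperplasia 1, 12 and 3 without large hyperplasia 2, and 14 and 3 without small hyperplasia 4, and the number that fell was also 3 without large hyperplasia 3. Without large hyperplasias 1 and 2 in turn, the 7 basal genes became 3 and 2 and the 11 squamous genes became 7 and 7, and without small hyperplasia 4 the basal count was 4. The 3 rises of junction genes became 1 without large hyperplasia 1 or small hyperplasia 1 or 3, 0 without large hyperplasia 2 or small hyperplasia 4, and 5 without large hyperplasia 4 or small hyperplasia 5. The 2 rises of hair genes became 1 without large hyperplasia 1 or 2 or small hyperplasia 1, 3 or 4. Krt17, Lgals7, Klk7, Klk10, Crct1, Gsdma, Sprr1a, Krtdap, Foxn1, Cldn1, Cd151 and Cnn1 kept their calls without any single hyperplasia. Calls were lost without large hyperplasia 1, 2 or 3 or small hyperplasia 4 for Trp63, and for Sox9 also without small hyperplasia 1. Krt5 lost its call without large hyperplasia 1 or 2 or small hyperplasia 1, Dsp without large hyperplasia 2 or small hyperplasia 4, and Pkp2 without large hyperplasia 1. Pkp3 lost its call without large hyperplasia 1 or 2 or small hyperplasia 1, 2, 3 or 4. Dsc3 lost its call without large hyperplasia 1, 2 or 3 or small hyperplasia 1, 3 or 4, Myh11 without large hyperplasia 1, 2 or 3 or small hyperplasia 2 or 4, and Prom1 and Krt75 in 7 and 8 omissions, those of large hyperplasias 1 to 4 and small hyperplasias 1 and 4 for both, of large hyperplasia 5 for Prom1, and of small hyperplasias 3 and 5 for Krt75. Adjusted p reached 0.14 in these cases.

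Proliferation genes differed little between the sizes. Of all genes, 4.18% rose. Of 31 mitotic genes, 29 had positive differences with a median of 0.18, and 2 rose. Mki67, the gene of the proliferation antigen Ki-67, read 391, 414, 417, 591 and 450 in large hyperplasias, against 342, 210, 369, 370 and 354 in small ones (0.45 ± 0.13, adjusted p = 0.025), and lost its call without large hyperplasia 4 or small hyperplasia 2 (adjusted p up to 0.074) and on the 10 arrays alone (0.076). Control tissue was at 60.0 to 74.3 and tumors at 383 to 492. Of 29 DNA replication genes, the clamp loader subunit Rfc3 rose (0.42 ± 0.11, adjusted p = 0.021). Of 31 targets and feedback genes of the Wnt pathway, 4 rose (median 0.29), namely Cd44, the ephrin Efnb2, endothelin Edn1 and the ligand Wnt10a. Efnb2 read 519, 622, 593, 349 and 517 in large hyperplasias, against 220, 276, 250, 220 and 233 in small ones (1.05 ± 0.22, adjusted p = 0.0046), and its call held without any single hyperplasia. The universal Wnt target Axin2 did not differ by a margin the test could call, at 175 to 228 in large and 151 to 283 in small hyperplasias (0.08 ± 0.20, adjusted p = 0.83), nor did Myc (-0.09 ± 0.20, adjusted p = 0.82). Lef1, a DNA-binding partner of β-catenin, differed by 0.75 ± 0.26 (adjusted p = 0.066). On the 10 arrays alone, 12 of the 31 Wnt genes rose, where 6.62% of all genes rose. The Wnt count of 4 was 2 without large hyperplasia 1 or 2 or small hyperplasia 4. The calls of Edn1 and Wnt10a were lost in these omissions, and that of Wnt10a also without large hyperplasia 3 or small hyperplasia 1 or 2. The mitotic count of 2 was 0 without large hyperplasia 4 or small hyperplasia 2, and 1 without large hyperplasia 2, 3 or 5 or small hyperplasia 1 or 3.

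Differences of fat and vessel genes were mostly negative. Of 19 adipocyte genes none had a positive difference and 6 fell, with a median of -0.78. Of 21 endothelial genes 7 fell, none rose and the median was -0.43, and 3 of 20 fibroblast and pericyte genes fell. Of all genes, 5.5% fell and 4.18% rose. Lipe, hormone-sensitive lipase, read 542, 431, 435, 616 and 573 in large hyperplasias, against 1114, 1384, 872, 1508 and 1106 in small ones (-1.17 ± 0.21, adjusted p = 0.0017). Pparg, the regulator of fat cell differentiation, read 168, 201, 202, 266 and 237 in large hyperplasias, against 465, 497, 502, 630 and 452 in small ones (-1.19 ± 0.24, adjusted p = 0.004). Neither gene overlapped between sizes, and control tissue was higher than both, at 2237 to 3151 for Lipe and 844 to 1116 for Pparg. Egfl7, secreted by endothelial cells, read 142, 111, 135, 126 and 103 in large hyperplasias, against 217, 226, 186, 198 and 221 in small ones (-0.70 ± 0.14, adjusted p = 0.0033). The angiopoietin receptor Tek fell by 0.63 ± 0.15 and the endothelial guidance receptor Robo4 by 0.60 ± 0.15 (adjusted p = 0.01 and 0.013). These 5 calls held without any single hyperplasia. The list counts of 6 and 7 were 4 adipocyte genes without large hyperplasia 2 or 3 and 5 to 7 endothelial genes in each omission, and the 3 fibroblast genes became 0 without large hyperplasia 2 and 1 without large hyperplasia 1, 3 or 5 or small hyperplasia 1 or 4. The part of this shift in tissue makeup in the rise of other genes was not tested.

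The 10 largest falls were taken among called genes with no overlap between sizes and a group median of at least 100. They were those of Ucp1, Cox8b, Cox7a1, Pdk4, Nnat, Ankef1, Scg3, Otop1, Sncg and Ephx2, which were not tested as a list. Ucp1, the uncoupling protein that brown fat uses to make heat, read 27.4, 586, 21.2, 121 and 29.0 in large hyperplasias, against 749, 1075, 2419, 1917 and 2514 in small ones (-4.13 ± 0.88, adjusted p = 0.0051). It ranged from 55.6 to 3107 among the 4 control tissues, so it varied as widely among normal glands as between lesions. Cox8b and Cox7a1, muscle and brown fat subunits of cytochrome c oxidase, fell (-2.16 ± 0.46 and -2.08 ± 0.43), as did the proton channel Otop1 and the mitochondrial kinase Pdk4 (-1.49 ± 0.26 and -1.84 ± 0.38, adjusted p = 0.0053, 0.004, 0.0015 and 0.0044). Sncg, a synuclein expressed in white fat, and Ephx2, soluble epoxide hydrolase, also fell (-1.49 ± 0.24 and -1.48 ± 0.29, adjusted p = 0.00075 and 0.0028). Nnat, Ankef1 and Scg3 differed by -1.83 ± 0.41, -1.61 ± 0.25 and -1.52 ± 0.28 (adjusted p = 0.0072, 0.00061 and 0.0021). Lack of overlap between sizes was a condition for choosing these 10 genes, and all kept their calls without any single hyperplasia.

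The rises differed in where tumors stood. Of the 485 genes that rose, the tumor median was above that of large hyperplasias for 148, between both hyperplasia medians for 179 and below that of small hyperplasias for 158. Among the 24 epithelial genes that rose, these counts were 18, 4 and 2. Among the 46 immune genes they were 5, 23 and 18, and 12 of the 14 B and plasma cell genes had a tumor median below that of small hyperplasias. Jchain had a median of 393 in tumors (93.2 to 1877) and 262 to 851 in control tissue. Klk10 had a median of 491 in tumors (251 to 799) and at most 11.5 in control tissue. Of the 638 genes that fell, 499 had a tumor median below that of large hyperplasias, all 6 adipocyte genes among them. Genes chosen as high in large hyperplasias are more likely to be lower elsewhere, so these positions are given as a description.

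**Figure D5:**
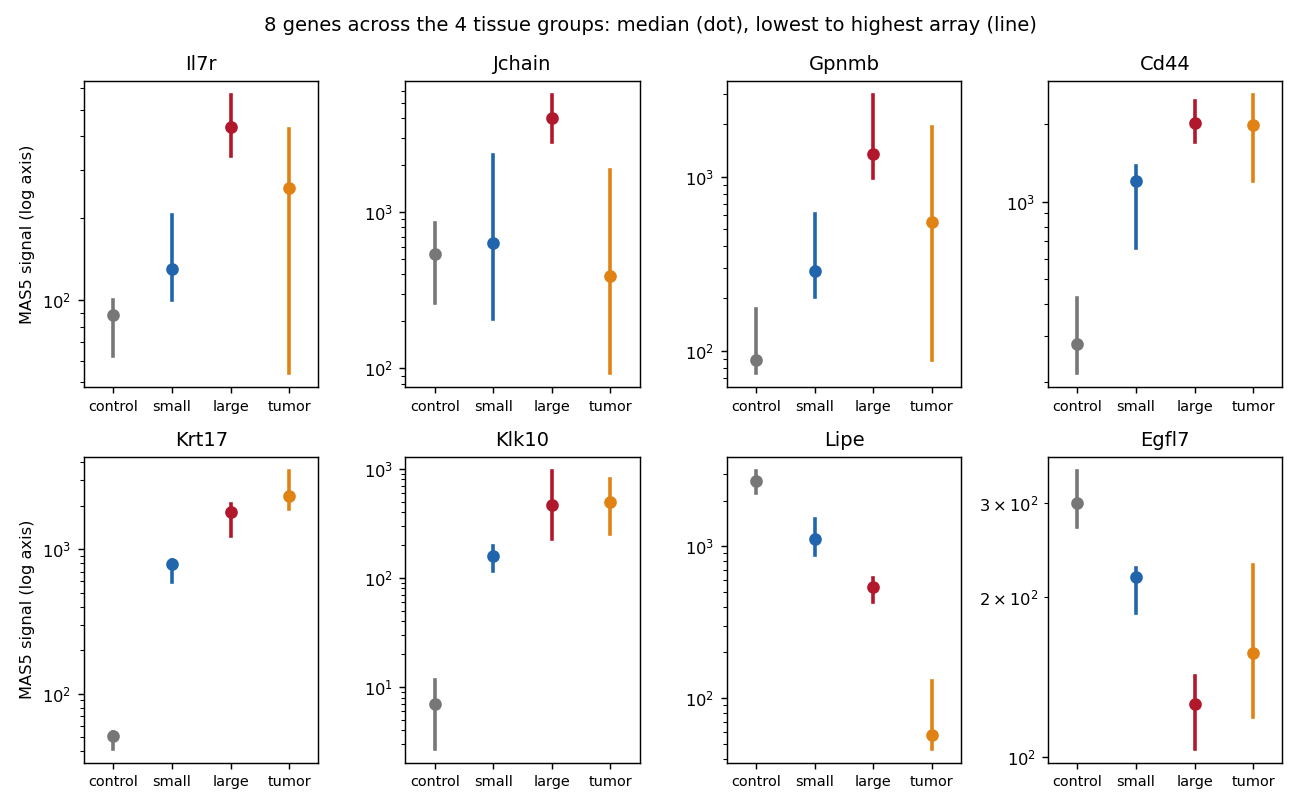
MAS5 signal (log axis) of 8 genes in control tissue (n = 4), small hyperplasias (n = 5), large hyperplasias (n = 5) and tumors (n = 11); dots are medians and lines run from the lowest to the highest array. Il7r, Jchain and Gpnmb have their highest median in large hyperplasias, Krt17 in tumors, and Lipe has its highest in control tissue.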

How the data were processed

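RNA of whole lesions was hybridised to Affymetrix Mouse Genome 430 2.0 arrays. The deposited values are MAS5 signals, linear intensities that the authors computed in Affymetrix Expression Console with a target of 100 and a trim of 2% (versions not given in the sources used here). Such scaling sets each array's mean, so a shift in bright genes moves the others. Of 45101 rows, 64 control probe sets were left out. Genes were named from the platform annotation, which gave 1 symbol to 34945 of 45037 probe sets, several to 932 and none to 9160. Probe sets with several symbols or none entered the fit but no gene count. For a gene with several probe sets, the brightest one by mean log2 signal in the 10 hyperplasias was used. No 2 arrays held identical values.

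Signals plus 16 were taken to log2 and fitted with limma 3.58.1 (R 4.3.3; lmFit, eBayes with trend) on 25 tissue arrays, which share 1 estimate of the spread, with the contrast large minus small hyperplasia. The number of arrays limits the precision. The steps were tested on simulated data. "At least" folds set the mean log2 signal of the bright group against 30. Named genes were the 10 largest rises and falls among called genes without overlap and with a group median of at least 100, up to 5 called members of each of 34 lists, and up to 2 of the brightest members of lists with few calls. Sprr1a, Krtdap, other members of the lists with their values, and second probe sets were added after their values were seen. The members and lists were chosen with earlier results of these data known. Alternatives were the offset, the filter, the scaling, the arrays in the fit, array weights, trend, the replicate number as a block, the methods' t-test and ratio rule, the probe set that stands for a gene, and leaving out each hyperplasia in turn. Leaving out large hyperplasias 1 and 2 together was chosen after seeing the data. Promoter sequences are from RefSeq (GRCm38.p6).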

Additional observations from a re-analysis of the deposited data

Results flagged for a closer look

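In 218 groups of 5 arrays, 1 array stood far from the other 4 (a gap of more than 0.71 of the group's range) in 20. For independent groups of normally spread values, chance gives about 1 in 20 groups, or 10.9. These groups are linear signals of genes that share the same arrays, so 20 cannot be judged against 10.9. Among large hyperplasias, replicate 1 stood apart for Igha (10416, others 4326 to 5424), Pdk4 (80.7, others 235 to 297) and Sdc4 (415, others 324 to 341), and replicate 2 for Ucp1 (586, others 21.2 to 121) and Col3a1 (4852, others 6130 to 6554). Among small hyperplasias, replicate 2 stood apart for Igk (361, others 24.8 to 85.1), Nnat (2772, others 1198 to 1549), Myh11 (290, others 181 to 212), Mki67 (210, others 342 to 370.02) and Robo4 (144, others 74.4 to 91.2). Small hyperplasia 3 stood apart for the neutrophil genes Ngp (91.6, others 13.3 to 29.7) and Camp (27.7, others 1.19 to 7.55). Small hyperplasia 4 did so for Il7r (205, others 101 to 130), Cybb (528, others 344 to 395), Mmp12 (1587, others 445 to 740.01), Pparg (630.3, others 452 to 502) and Ltb (157, others 37.8 to 70.9). Small hyperplasia 5 did so for Cd86 (58.8, others 36.3 to 40.02), C3ar1 (352, others 231 to 263) and Pkp3 (363, others 200 to 234).

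A signal outside the comparison of large and small lesions was that of H2-Ea in tumor 4, at 1382, where control tissue reached at most 44.9 and the other 10 tumors at most 6.89.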

How the results depend on the processing

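Counts of calls moved with the processing, given here as rises and falls in large hyperplasias. Leaving out 1 hyperplasia gave 513 to 1455 and 685 to 1245 probe sets, 16 to 54 and 2 immune genes, 1 to 6 and 0 to 4 matrix genes, and 12 to 30 and 3 to 6 epithelial genes. Without large hyperplasias 1 and 2, an alternative chosen after seeing the data, these were 197 and 311 probe sets, 6 rises of immune genes, 1 and 0 matrix genes, and 3 and 2 epithelial genes. With no offset, 28 and 1 immune, 0 falls of matrix, and 14 and 3 epithelial genes were called. A floor of 30 gave 7 and 6 matrix genes, no filter gave 2 and 0 matrix genes and 3 falls of epithelial genes, and quantile normalization gave 4 falls of matrix genes. Scaling to the same median gave 604 rises of probe sets, 2 and 5 matrix genes, and 15 and 9 epithelial genes. The 10 hyperplasia arrays alone gave 92 and 4 immune, 15 and 23 matrix, and 43 and 15 epithelial genes. Array weights gave 2339 and 1702 probe sets, 82 rises of immune genes, 8 and 9 matrix genes, and 11 falls of epithelial genes. The methods' t-test gave 3187 and 2432 probe sets, 116 and 6 immune, 21 and 38 matrix, and 47 and 18 epithelial genes at an unadjusted p under 0.05, and 220 and 198 probe sets, 18 and 1 immune, 0 and 1 matrix, and 5 and 2 epithelial genes after Benjamini-Hochberg. The methods' ratio rule gave 546 and 312 probe sets and 7 and 6 matrix genes. The cause of these shifts was not tested.

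Deviations of same-numbered lesions correlated at -0.15 to 0.10, and 2 of 5 correlated best with their own number. These values cannot settle whether such lesions shared an animal, which the labels do not give. With the replicate block on the 10 arrays, 1124 and 998 probe sets, 74 and 4 immune, 11 and 24 matrix, and 38 and 15 epithelial genes were called.

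Of 101 named genes that were called, 52 kept their call in all 10 omissions. Without large hyperplasias 1 and 2 together, 73 of 100 lost their call. With the methods' t-test after Benjamini-Hochberg, 78 of 101 did. Among the called named genes, Sdc4 was the only one to turn its direction, at -0.37 with its most variable probe set. Of the named genes that were not called, several changed sign, Col1a2 (-0.14 to 0.08) and Timp2 (-0.31 to 0.16) among them. Others kept 1 sign throughout, such as Mmp12 (1.51 to 1.96) and Krt18 (-1.10 to -0.69). Of 918 list medians under the alternatives, 33 changed sign and 43 moved by more than the spread. Counts for probe sets do not apply where all probe sets of a gene are averaged. Signals near 30 and below limit the dim genes.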
